A study of Mus musculus with 3 samples.

Results

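The genes of major histocompatibility complex (MHC) class II presentation were followed across blood cells of 3 mouse libraries. The 10 genes, of 32285 in the count matrices, were taken by symbol: H2-Aa, H2-Ab1 and H2-Eb1, H2-DMa, H2-DMb1 and H2-DMb2, H2-Oa and H2-Ob, Cd74 and Ciita. All 10 were found. Peripheral blood mononuclear cells came from C57BL/6 mice in 3 groups with 1 library each: aged mice given AA for 1 month (aged+AA), aged mice given PBS for 1 month (aged), and young mice given PBS for 1 month (young). AA is ascorbic acid by the series title, and PBS is phosphate-buffered saline. The labels give neither ages in months nor the number of mice behind a library. RNA was read from its 3′ end by droplet single-cell sequencing, and each unique molecular identifier (UMI) marks 1 captured molecule, so levels of different genes were compared without division by length.

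MHC class II molecules are heterodimers that carry peptides from endosomes to the surface of antigen-presenting cells, where CD4+ T cells read them. H2-Aa and H2-Ab1 encode the chains of I-A; H2-Eb1 encodes the beta chain of I-E, whose alpha chain is not made in C57BL/6 mice. Cd74, the invariant chain, escorts new class II dimers and blocks their groove, the H2-DM heterodimer exchanges the remaining fragment for peptide, and the H2-O heterodimer inhibits H2-DM. Ciita is the transactivator that the promoters of these genes depend on. It does not bind DNA itself but is recruited by RFX, CREB and NF-Y proteins bound to the X and Y boxes of those promoters. B cells and dendritic cells hold the pathway on at rest, plasma cells shut Ciita off, and mouse T cells are known for lacking class II. Ciita lies on chromosome 16 (10480059 to 10528418, plus strand) and Cd74 on chromosome 18 (60803848 to 60812652, plus strand) in the GRCm38 annotation (GENCODE M21).

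In the same annotation, 8 of the 10 genes lie within 224 kb of chromosome 17, between H2-Oa at 34092340 and the end of H2-Eb1 at 34316674. H2-Aa is the gene on the minus strand (34282744 to 34287823). H2-DMa overlaps Brd2 and CR974462.4 on the opposite strand and CR974462.3 on its own. H2-Eb1 overlaps Gm20513, H2-Oa BC051537 and Ciita Dexi, each on the opposite strand, and whether counting used strand is not given in the sources used here.

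RefSeq promoter windows of 300 bases (GRCm38.p6, 250 before to 50 after the gene start) were held for 7 of the 10 genes. They are shown because they carry the box letters that join these genes to Ciita. TGATTGG, the Y box core (a reversed CCAAT box), occurred in the windows of 6 genes and AACNNNTGA, taken here for part of the X box, in 4. Both were searched on both strands, do not overlap each other where both were found, and were chosen with these promoters in view. Each stretch below is 80 bases, 5′ to 3′ along its gene, with Y box letters in capitals, and the X box letters too where they precede them by 20 to 45 bases.
H2-Eb1, chr17:34305746-34305825, plus strand: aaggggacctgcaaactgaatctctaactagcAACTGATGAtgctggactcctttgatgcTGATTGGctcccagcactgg
H2-DMb1, chr17:34153068-34153147, plus strand: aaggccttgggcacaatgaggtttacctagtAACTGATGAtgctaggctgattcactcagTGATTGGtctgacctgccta
H2-DMb2, chr17:34145097-34145176, plus strand: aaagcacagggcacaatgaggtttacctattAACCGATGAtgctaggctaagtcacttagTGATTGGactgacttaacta
H2-Ob, chr17:34238786-34238865, plus strand: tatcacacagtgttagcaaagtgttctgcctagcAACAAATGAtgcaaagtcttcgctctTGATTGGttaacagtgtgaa
H2-Aa, chr17:34287854-34287933, minus strand: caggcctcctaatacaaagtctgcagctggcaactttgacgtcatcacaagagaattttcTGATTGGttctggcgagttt
H2-Oa, chr17:34092274-34092353, plus strand: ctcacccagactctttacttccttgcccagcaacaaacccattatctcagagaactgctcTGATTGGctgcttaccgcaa
In H2-Eb1, H2-DMb1, H2-DMb2 and H2-Ob the X letters began 28, 29, 29 and 26 bases before the Y letters. Of all 32851 promoter windows in the table, 11.9% held AACNNNTGA, 7.82% held TGATTGG, and 20 windows (0.0609%) held both in that order and spacing. The H2-DMa windows held neither set of letters.

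The aged+AA, aged and young libraries held 80424480, 94944551 and 64496639 UMIs. After cell calling, filters and doublet removal, 10982, 9722 and 8769 cells remained, with medians of 4079, 3602 and 4458 UMIs. Cell classes were gated on raw UMIs of marker genes that include no class II gene: B on markers that include Cd79a, Cd79b, Ms4a1 and Fcmr, T on Cd3d, Cd3e and Cd3g, and dendritic cells, monocytes, natural killer (NK) cells, neutrophils and plasma cells on lists of their own. B cells made up 48.1% of aged+AA, 44.4% of aged and 28.3% of young cells (5287, 4318 and 2480 cells), and T cells 37.4%, 20.8% and 58.2%. Pax5, a B cell factor left out of the gates, stood at 230, 328 and 180 counts per 1000000 UMIs (CPM) in these B cells and at no more than 2.52 CPM in T cells. Conventional dendritic cells were rare, with 2 aged+AA, 11 aged and 0 young cells. Kept cells of different libraries shared 21 to 29 barcodes, at most 0.298% of a library, and no ratio of the 10 genes between B cells of different libraries moved past its counting interval without them. With 1 library per group there is no replicate check and no test between groups, and the 95% intervals given with CPM (exact Poisson), ratios (exact conditional binomial) and shares (exact binomial) cover counting error only. Free RNA, taken as the sum of low-count barcodes with 28 to 57 UMIs in the aged+AA, 36 to 79 in the aged and 11 to 20 in the young library, held 9704, 5830 and 3555 CPM of the 10 genes. Haemoglobin UMIs put the free RNA in the median B cell at 2.23%, 3.07% and 1.19%, and in the median T cell at 1.66%, 2.24% and 0.912%, in the aged+AA, aged and young libraries.

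B cells carried the pathway at high level in every library. The 10 genes together made up 31861 CPM in aged+AA, 24659 CPM in aged and 28504 CPM in young B cells, with Cd74 as the largest part in each case. Cd74 stood at 17208 CPM in aged+AA, 12619 CPM in aged and 15090 CPM in young B cells, and it was 54.0%, 51.2% and 52.9% of the 10 genes' UMIs. The 3 chain genes followed at similar levels to one another. H2-Aa reached 4166, 3167 and 3764 CPM, H2-Ab1 3924, 3222 and 3782 CPM, and H2-Eb1 4148, 3633 and 3630 CPM in aged+AA, aged and young B cells. The aged library was the lowest for H2-Aa and H2-Ab1, while for H2-Eb1 the aged and young libraries were alike and the aged+AA library was higher.

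The genes that edit the peptide cargo came at lower levels. H2-DMa, the alpha chain of H2-DM, stood at 607, 477 and 581 CPM in aged+AA, aged and young B cells. H2-DMb2 stood at 652, 427 and 652 CPM and H2-DMb1, the other H2-DM beta gene, at 169, 129 and 138 CPM. H2-Oa and H2-Ob, the chains of the H2-DM inhibitor H2-O, stood at 309, 255 and 262 CPM and at 537, 554 and 516 CPM. H2-Ob was thus at a like level in all 3 libraries. Ciita stood at 141 CPM in aged+AA, 175 CPM in aged and 90.04 CPM in young B cells, lowest in the library where Cd74 was intermediate.

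**Figure D1:**
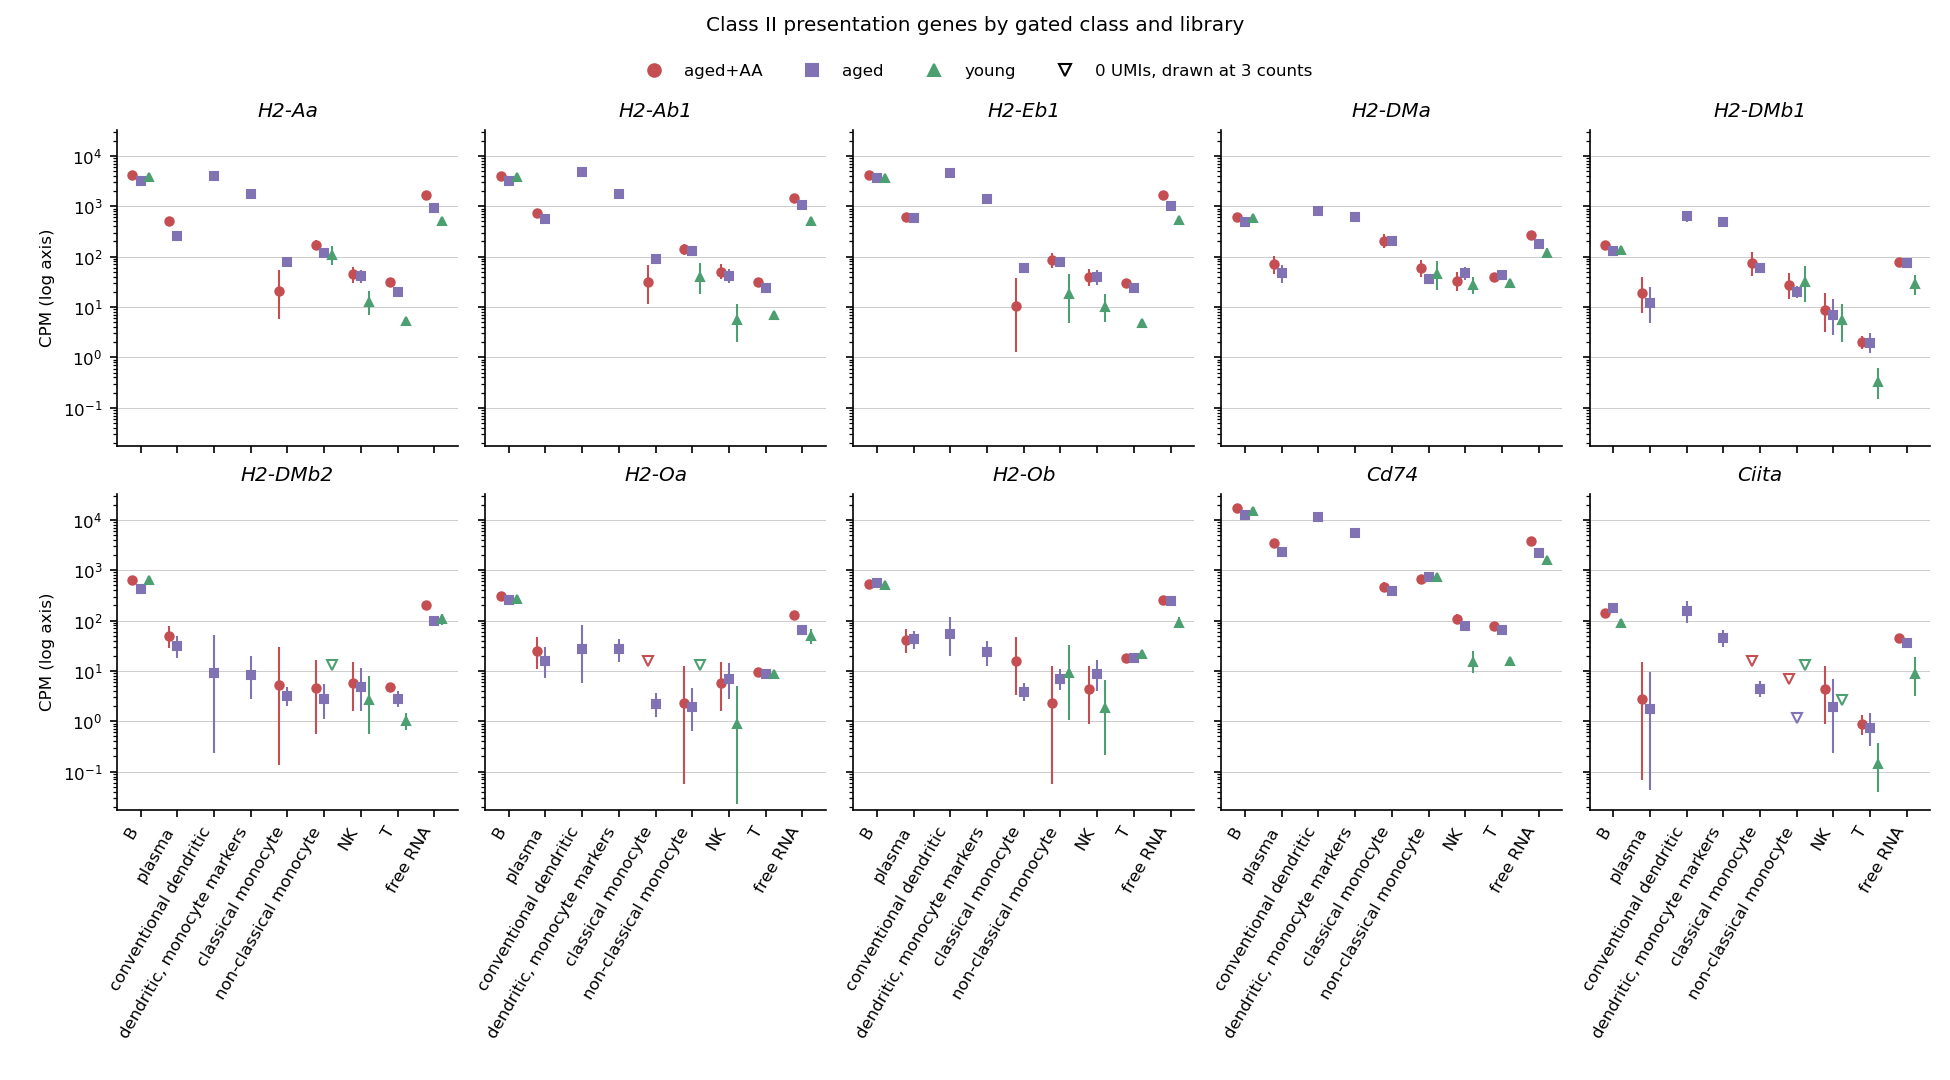
CPM of each of the 10 genes (log axis) in marker-gated classes of at least 10 cells and in free RNA, with aged+AA (circles), aged (squares) and young (triangles) libraries and exact Poisson 95% intervals as bars; open triangles mark sums with 0 UMIs, drawn at the level of 3 counts. B and dendritic cells lead for most genes, while H2-DMb2, H2-Oa and H2-Ob are high in B cells and low in dendritic cells of the aged library.

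The comparison of aged+AA with aged cells addresses the AA treatment. In B cells, 8 of the 10 genes were above their aged level after AA, and H2-Ob and Ciita were not. Cd74 was 1.36-fold (95% interval 1.36 to 1.37), H2-Aa 1.32-fold (1.30 to 1.33) and H2-Ab1 1.22-fold the aged level. H2-Eb1 was 1.14-fold (1.13 to 1.15), H2-DMa 1.27-fold, H2-DMb1 1.31-fold and H2-Oa 1.21-fold the aged level, with intervals above 1 for each, H2-Ab1 included. The largest ratio was that of H2-DMb2, 1.53 (1.48 to 1.57), and the only member at or past 1.5-fold, the size used here to count a difference. This is 1 of 10 members higher and 0 lower, against 4.23% and 6.01% of the 10463 genes with at least 50 UMIs in these B cells. H2-Ob had a ratio of 0.969 (0.943 to 0.997) and Ciita one of 0.806 (0.766 to 0.849). The median log2 ratio of the 10 genes was 0.32, beside -0.02 for all genes. Haemoglobin made up 3.81% of the UMIs of aged+AA, 12.2% of aged and 4.24% of young B cells. Without ribosomal, mitochondrial, haemoglobin and immunoglobulin genes in the total, the median was 0.23 and H2-DMb2, at 1.44, did not reach the 1.5-fold mark.

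The comparison of aged with young cells addresses age. In B cells, H2-DMb2 was at 0.655 (0.633 to 0.678) of the young level, while Ciita was 1.95-fold higher (1.80 to 2.10). These were the 2 members at or past 1.5-fold, 1 higher and 1 lower, against 17.9% and 4.94% of 9932 genes. H2-DMb2 did not reach 1.5-fold lower when ribosomal, mitochondrial, haemoglobin and immunoglobulin genes were left out of the total (0.668), with at most 5% mitochondrial UMIs (0.684) or as a mean over cells (0.668). Cd74 was at 0.836 (0.831 to 0.842), H2-Aa at 0.841, H2-Ab1 at 0.852 and H2-DMa at 0.822 of the young level. H2-Eb1 (1.00), H2-Oa (0.973) and H2-DMb1 (0.935, with an upper bound of 1.00) had intervals that reached 1, and H2-Ob was at 1.07 (1.04 to 1.11). The median log2 ratio of the 10 genes was -0.16, but that of all genes was 0.17. With at most 5% mitochondrial UMIs, the median of the 10 was -0.04. Relative to all genes, the median of the 10 was -0.33 and 9 of them lay below, H2-Eb1 at -0.17 and H2-Ob at -0.07 included, so that the side on which H2-Ob falls depends on this scaling. H2-DMb2 was thereby the lowest gene of the group in aged against young B cells and the highest in aged+AA against aged B cells. The aged library enters both comparisons, so their opposite directions are not independent.

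**Figure D2:**
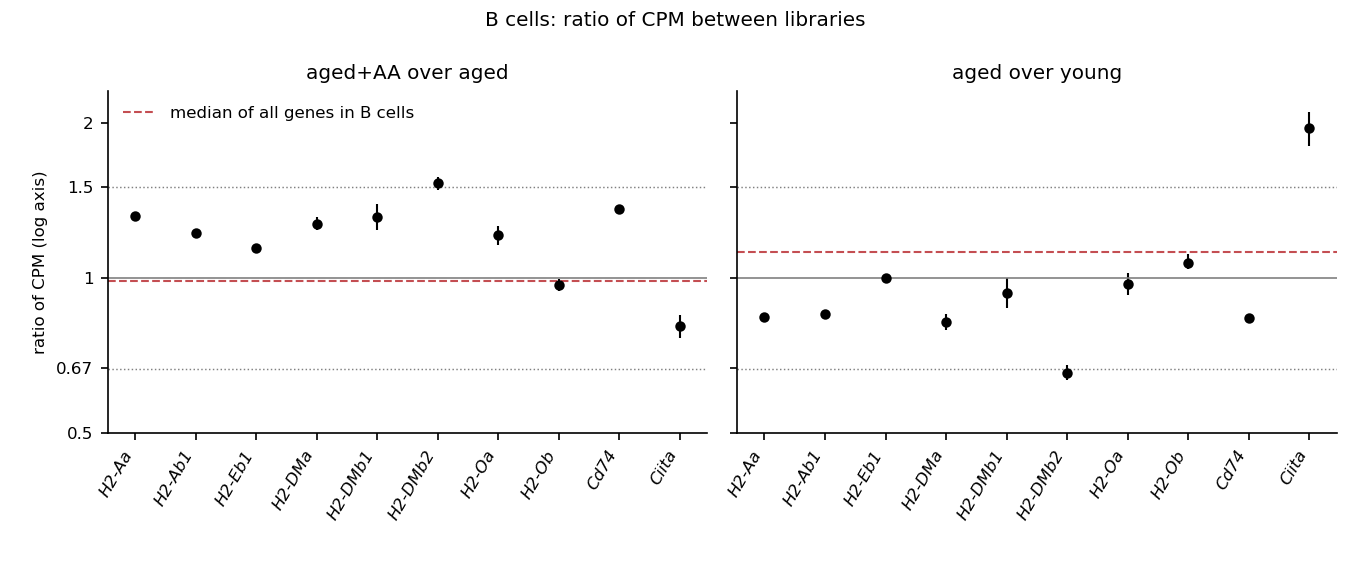
Ratio of CPM in B cells (log axis) for each gene, aged+AA over aged on the left and aged over young on the right, with exact conditional binomial 95% intervals as bars. The dashed line is the median of all genes and the dotted lines mark 1.5-fold either way; H2-DMb2 (1.53 and 0.655) and Ciita (0.806 and 1.95) stand at opposite ends.

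Ciita and Cd74 differed in opposite directions in both comparisons with the aged library, while both were higher in aged+AA than in young B cells. Set against Cd74, a scale that needs no library total, there were 0.821 Ciita UMIs per 100 Cd74 UMIs in aged+AA, 1.39 in aged and 0.597 in young B cells. The ratio of these was 0.591 (0.561 to 0.622) for aged+AA over aged and 2.33 (2.16 to 2.51) for aged over young. The aged library thus had the most Ciita RNA per unit of invariant chain RNA, being highest for Ciita and lowest for Cd74. When every B cell was thinned to 1000 UMIs, which left out 27, 22 and 6 cells, a Ciita UMI was found in 13.3%, 17.8% and 8.65% of aged+AA, aged and young B cells. T cells, thinned alike, gave 0.0731%, 0.0495% and 0.0392% (3, 1 and 2 cells), and medians before thinning were 3562.0, 3115.5 and 3415.0 UMIs in B cells and 5482.0, 4737.0 and 5019.0 UMIs in T cells. Without thinning, the shares of B cells were 39.1%, 43.9% and 27.7%, in the same order of libraries.

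The other genes also differed from one another on the Cd74 scale. H2-Aa was nearly constant, at 24.2, 25.1 and 24.9 UMIs per 100 Cd74 UMIs in aged+AA, aged and young B cells. H2-Eb1 stood at 24.1, 28.8 and 24.1, and H2-Ob at 3.12, 4.39 and 3.42, so both were highest in the aged library. H2-DMb2 alone was lowest there, at 3.38 per 100 Cd74 UMIs, against 3.79 in the aged+AA and 4.32 in the young library.

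At the level of single cells, the pathway was present in nearly every B cell. After thinning to 1000 UMIs, 99.9%, 99.8% and 99.9% of aged+AA, aged and young B cells held a Cd74 UMI. The 10 genes summed to a median of 33 UMIs per 1000 in aged+AA, 27 in aged and 30 in young B cells. The middle 90% of cells ran between 16 and 50, 10 and 43, and 14 and 48 UMIs. The libraries therefore overlapped over most of their range. B cells with a UMI of none of the 10 genes numbered 1, 3 and 2 after thinning.

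**Figure D3:**
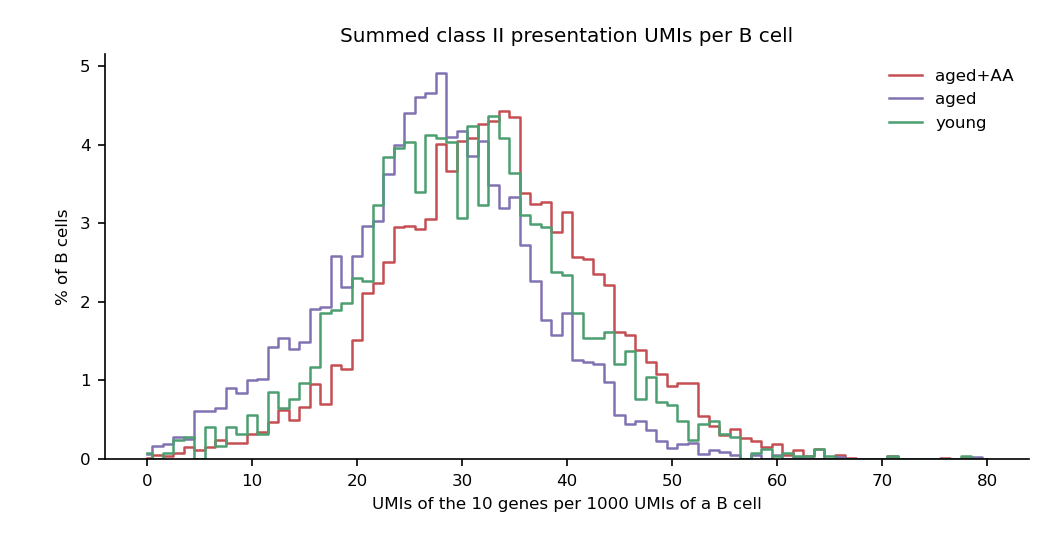
Distribution over B cells of the summed UMIs of the 10 genes after each cell was thinned to 1000 UMIs, as a percentage of B cells in the aged+AA, aged and young libraries. Each library forms a single broad peak, with medians of 33, 27 and 30 UMIs.

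B cells with Fcer2a or Cr2 UMIs (mature markers) were set against those with Cd93 or Vpreb3 UMIs (immature markers) within each library. Mature cells needed at least 1 UMI of their markers, immature cells at least 2, and none of the other pair. In aged+AA, aged and young, 1663, 1196 and 602 cells were mature and 391, 473 and 318 immature. Most B cells were in neither group. H2-Aa, H2-Ab1 and H2-Eb1 were higher in mature cells in all 3 libraries, by 1.07- to 1.26-fold. H2-Oa was 1.14-fold higher in aged+AA (1.03 to 1.28) and 1.31-fold in aged mature cells (1.16 to 1.47), with young cells between them (1.09 to 1.44). H2-Ob was 1.11-, 1.22- and 1.16-fold higher in the aged+AA, aged and young libraries. Cd74 did not follow them, with ratios of 0.991, 1.01 and 0.960. Between libraries, the median log2 ratio for aged+AA over aged was 0.26 in mature and 0.40 in immature B cells. For aged over young it was -0.13 and -0.21. The medians of all genes were -0.01 and 0.01 for aged+AA over aged, and 0.18 and 0.09 for aged over young. Relative to these, the 10 genes stood at 0.27 and 0.40, and at -0.31 and -0.30. H2-DMb2 stayed short of 1.5-fold in both stages, at 1.46 and 1.49 for aged+AA over aged and at 0.668 and 0.674 for aged over young. Ciita for aged+AA over aged was 0.754 in mature (0.685 to 0.829) and 0.952 in immature B cells (0.789 to 1.15). For aged over young, Ciita was 2.02 in mature (1.74 to 2.36) and 1.86 in immature B cells (1.47 to 2.36).

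Plasma cells, gated on Sdc1, Prdm1, Tnfrsf17 and Derl3, numbered 18 after AA and 34 in aged blood. They held 1 Ciita UMI in each library (2.71 and 1.72 CPM) among 369348 and 582440 UMIs in all. H2-Aa was 506 CPM in aged+AA and 258 CPM in aged plasma cells, and Cd74 was 3460 and 2330 CPM. Relative to B cells of the same library, H2-Aa was at 0.122 in the aged+AA library. The young library had 1 plasma cell.

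Dendritic cells of the aged library, 11 cells with 109858 UMIs in all, held somewhat more of the chains than aged B cells and differed more in the editing genes. H2-Aa stood at 4005 CPM, H2-Ab1 at 4888 CPM, H2-Eb1 at 4506 CPM and Cd74 at 11287 CPM. Over aged B cells these were 1.26 (1.15 to 1.39), 1.52 (1.39 to 1.65), 1.24 (1.13 to 1.35) and 0.894 (0.845 to 0.946). H2-DMa was 819 CPM and Ciita 155 CPM (17 UMIs). H2-DMb1 stood at 637 CPM (497 to 805), against 129 CPM in aged B cells, while H2-DMb2 had 1 UMI and H2-Oa and H2-Ob had 3 and 6 UMIs. A further 50 aged cells had dendritic markers together with as many or more monocyte UMIs. They held less of the chains (H2-Aa at 1720 CPM, Cd74 at 5594 CPM) with the same editing pattern, H2-DMb1 at 478 CPM and H2-DMb2 at 8.33 CPM. The 2 aged+AA dendritic cells had 18 H2-DMb1 UMIs and 1 H2-DMb2 UMI, and their chain genes were 1.56 to 1.82 times the B cell level. H2-Oa had 5 UMIs in them, at 0.808 of the B cell level (0.262 to 1.89), and H2-Ob had 0 UMIs.

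The H2-DMb pair therefore separated the antigen-presenting classes. H2-DMb1 made up 20.6% of the pair's 17398 UMIs in aged+AA, 23.2% of 9206 in aged (22.3 to 24.1) and 17.5% of 7778 in young B cells (16.6 to 18.3). In dendritic cells the share was 94.7% of 19 UMIs in aged+AA (74.0 to 99.9) and 98.6% of 71 UMIs in aged cells. Classical monocytes gave 93.3% in aged+AA (15 UMIs in all) and 94.8% in aged (426 UMIs), and non-classical monocytes 85.7%, 87.9% and 100% in aged+AA, aged and young cells (14, 58 and 7 UMIs). Plasma cells had a share of 28.0% in both aged libraries, from 25 UMIs each. In free RNA the share was 27.5%, 43.4% and 21.3% in the aged+AA, aged and young libraries, the order of libraries also seen in B cells. Classical monocytes made up 0.191%, 6.94% and 0.0456% of kept cells, and their part in the free RNA share was not tested. The 2 genes are related copies. Their longest transcripts were 69.2% identical when aligned whole (1668 columns, gaps included). Their last 500 bases were 59.8% identical (555 columns, gaps included). Of the 90-base windows in the last 500 bases of the longest H2-DMb1 transcript, 12.7% also occur in the longest H2-DMb2 transcript. How reads from such stretches were counted is not given in the sources used here, so the exact split is uncertain. Their promoter windows of 300 bases were 62.3% identical over 345 aligned columns, gaps included.

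**Figure D4:**
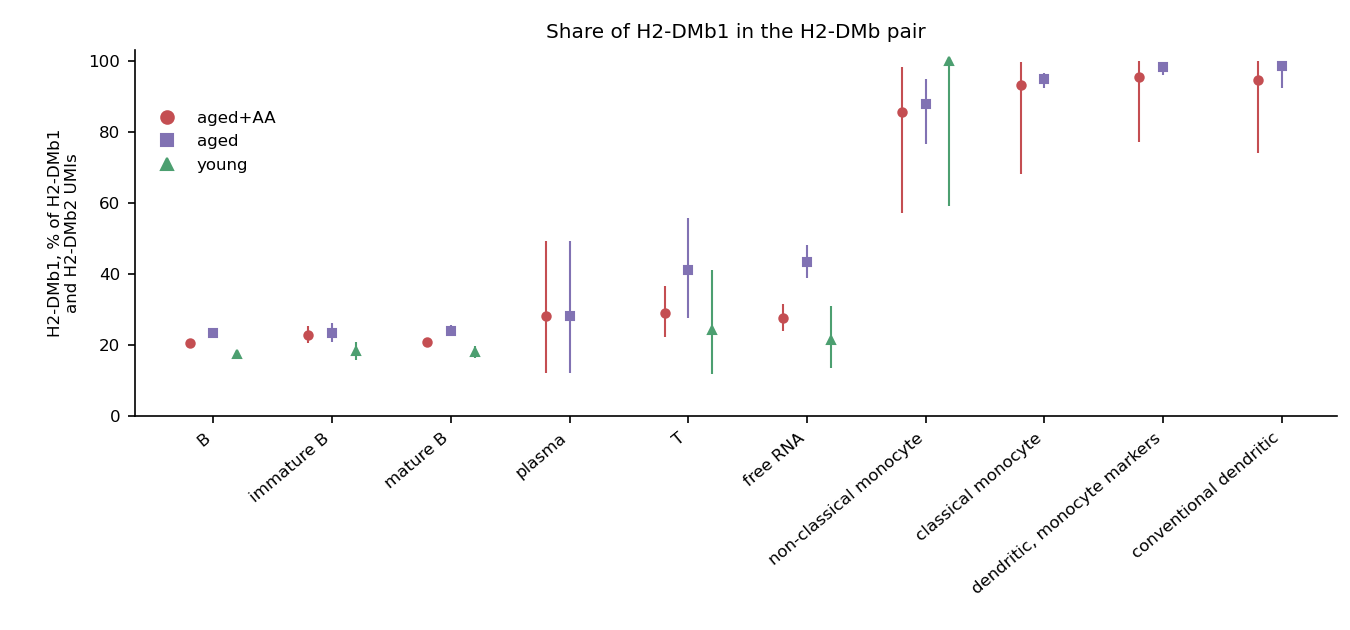
H2-DMb1 as a percentage of the UMIs of H2-DMb1 and H2-DMb2 by class, for aged+AA (circles), aged (squares) and young (triangles) libraries with at least 5 such UMIs, with exact binomial 95% intervals as bars. B cells lie between 17.5% and 23.2%, and monocytes and dendritic cells between 85.7% and 100%.

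Monocytes held little of the chains. Aged classical monocytes, 675 cells, had H2-Aa at 79.4 CPM, H2-Ab1 at 91.3 CPM and H2-Eb1 at 59.2 CPM, which is 8.64%, 8.54% and 5.92% of the free RNA level. Few cells carried these sums: 10 of the 675 cells held 55.4% of the H2-Aa, 57.0% of the H2-Ab1 and 60.9% of the H2-Eb1 UMIs. H2-DMa and H2-DMb1 were the exceptions. H2-DMa stood at 206 CPM (196 to 217), or 116% of the free RNA level, and H2-DMb1 at 58.1 CPM, or 78.2%. H2-DMa UMIs were spread over 552 of the cells, and the top 10 held 6.76% of them. H2-DMa was also 206 CPM in the 21 aged+AA classical monocytes (39 UMIs, 147 to 282). H2-DMb1 had 14 UMIs there, or 95.7% of its free RNA level (51.1 to 166). H2-Aa had 4 UMIs (1.24% of its free RNA level, against 1.17% free RNA by haemoglobin in the median cell). The young library had 4 such cells. Brd2, on the opposite strand to H2-DMa, stood at 143 CPM in aged+AA and 128 CPM in aged classical monocytes and at 196 and 221 CPM in B cells of the same libraries. CR974462.3 and CR974462.4 had at most 1 UMI each in a library's classical monocytes. The part of reads from overlapping genes in the H2-DMa level was not tested.

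Non-classical monocytes, 104 aged+AA, 495 aged and 51 young cells, held H2-Aa at 171, 116 and 107 CPM and Cd74 at 681, 725 and 729 CPM. Ciita had 0 UMIs in all 3 libraries, where 3 counts over the class would be 6.83, 1.17 and 13.3 CPM. For aged+AA over aged, 6 members had at least 50 UMIs, and 1 of these, H2-DMa at 1.64 (1.02 to 2.55), was at or past 1.5-fold higher and 0 lower, against 9.86% and 6.34% of 5884 genes. For aged over young the counts were 2 higher and 1 lower of 6, against 18.4% and 11.0% of 5648 genes. H2-Ab1 had a ratio of 3.17 (1.65 to 7.0) and H2-Eb1 one of 4.49 (1.73 to 16.6), but the young values rest on 9 and 4 UMIs. H2-Ab1 UMIs were found in 106 of the 495 aged and 6 of the 51 young cells, and 10 aged cells held 53.4% of the aged UMIs. H2-DMb1 was lower at 0.638, with an interval of 0.288 to 1.67.

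In T cells, 3 of the 10 genes lay far above the free RNA share of the median cell, and the other 7 near it or moderately above it. Cd74 stood at 77.9, 66.3 and 15.7 CPM in aged+AA, aged and young T cells, which is 2.01% (1.91 to 2.12), 3.08% (2.84 to 3.33) and 0.980% (0.875 to 1.10) of its free RNA level. H2-Aa, H2-Ab1 and H2-Eb1 came to between 0.926% and 2.43% of theirs, H2-DMb1 and H2-DMb2 to between 0.958% and 2.89%, and Ciita (21, 8 and 4 UMIs) to between 1.69% and 2.10%. The free RNA of the median T cell was 1.66%, 2.24% and 0.912% by haemoglobin, without an interval. The gene levels are instead sums over all T cells, in which haemoglobin was 2.80%, 7.95% and 2.65% of UMIs. These measures are unlike, so an interval above the median-cell share does not measure an excess over free RNA. Cd74 in the aged+AA and aged libraries and H2-Ab1 in the aged+AA (1.95 to 2.29) and young libraries (1.15 to 1.64) had intervals above that share, as did H2-DMb1 (1.81 to 3.56) and H2-DMb2 (1.91 to 2.91) in the aged+AA library. H2-DMa, H2-Oa and H2-Ob lay several times above it. H2-DMa stood at 39.0, 43.3 and 30.4 CPM, or 14.8%, 24.4% and 25.5% of its free RNA level in aged+AA, aged and young T cells. H2-Oa stood at 9.41, 8.67 and 8.60 CPM (7.31%, 13.4% and 17.8%), and H2-Ob at 18.1, 17.7 and 21.3 CPM (7.15%, 7.37% and 23.4%). Their share of the 10 genes' UMIs differed accordingly: H2-DMa made up 16.0%, 20.6% and 32.2% in T cells, against 2.72%, 3.05% and 3.36% in free RNA and 1.90%, 1.94% and 2.04% in B cells.

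**Figure D5:**
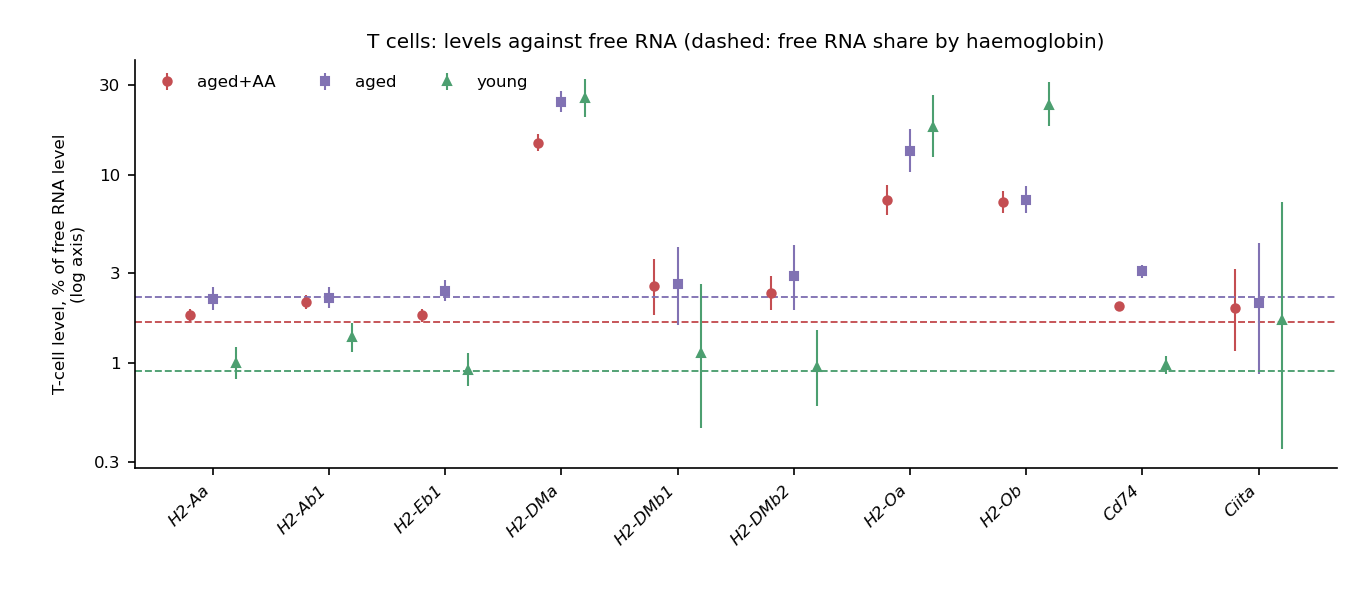
Level of each gene in T cells as a percentage of its level in free RNA of the same library (log axis), with exact conditional binomial 95% intervals as bars; dashed lines give the free RNA share of the median T cell by haemoglobin (1.66%, 2.24% and 0.912%). H2-DMa, H2-Oa and H2-Ob lie above the lines in all 3 libraries, between 7.15% and 25.5%.

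The T cell values that differed between libraries were mostly those of these 7 genes. For aged over young, H2-Eb1 was 5.01-fold, Cd74 4.22-fold and H2-Aa 3.87-fold higher, and 5 of the 8 members with at least 50 UMIs were at or past 1.5-fold higher and 0 lower, against 28.8% and 5.09% of 10410 genes. Cd74 in free RNA was 2154 CPM in the aged and 1602 CPM in the young library. The free RNA share of the median T cell was also higher in the aged library. Over all T cells, H2-DMa differed by 1.42-fold (1.27 to 1.60), H2-Oa by 1.01-fold (0.784 to 1.29) and H2-Ob by 0.832-fold (0.703 to 0.982). For H2-DMa and H2-Oa, CD4 and CD8 T cells differed from each other in this ratio, as given below. For aged+AA over aged, H2-Aa (1.52) and H2-DMb2 (1.73, 1.15 to 2.67) were at or past 1.5-fold higher, 2 of 9 members, and 0 were lower, against 3.44% and 10.9% of 10424 genes. The part of free RNA in these differences was not tested.

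Among T cells, those with at least 2 UMIs of Cd8a or Cd8b1 and none of Cd4 were set against those with at least 1 UMI of Cd4 and none of either Cd8 gene. In young cells H2-DMa was 44.0 CPM in CD8 and 16.99 CPM in CD4 T cells, 2.59-fold higher in CD8 (2.06 to 3.29), and H2-Oa was 16.5 and 3.05 CPM, 5.40-fold higher (3.24 to 9.66). H2-Ob did not differ in that way, at 0.939-fold (0.751 to 1.18). The same ratios were lower in the other libraries. H2-DMa was at 1.11 in aged+AA (0.917 to 1.36) and 1.27 in aged cells (1.00 to 1.62). H2-Oa was at 1.44 (0.928 to 2.32) and 1.76 (1.02 to 3.17), so both aged+AA intervals held 1. Other genes were lower in CD8 than in CD4 T cells of these libraries. Cd74 was at 0.658 (0.579 to 0.748) and 0.584 (0.481 to 0.709), and H2-Ab1 at 0.664 (0.544 to 0.814) and 0.695 (0.512 to 0.947). Of the genes that overlap H2-DMa, Brd2 stood at 173 CPM in CD8 and 191 CPM in CD4 T cells of the young library and CR974462.4 at 4.54 and 1.91 CPM, while CR974462.3 had 0 and 1 UMIs. The part of their reads in the H2-DMa ratios was not tested. In NK cells H2-DMa stood at 12.6%, 26.3% and 22.6% of its free RNA level (aged+AA, aged, young), from 23 to 48 UMIs. H2-DMb1 was close to this in aged+AA (11.2%, 4.04 to 24.9) and young NK cells (19.0%, 6.24 to 49.0), from 6 UMIs each. By CPM, H2-DMa was below Cd74 in aged+AA (33.2 against 107) and aged NK cells (46.8 against 78.9). It was above Cd74 in young NK cells (27.0 against 15.3).

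Other genes of the pathway were read in B cells from lists of regulators, endosomal processing and surface turnover. Of 11 regulators measured, 0 were at or past 1.5-fold either way for aged+AA over aged, against 4.23% of all genes higher and 6.01% lower. For aged over young 2 were higher and 0 lower: Rfx5, a subunit of the RFX complex, at 1.98 (20.7 CPM in aged and 10.5 CPM in young cells) and Nfya, an NF-Y subunit, at 1.95 (28.1 and 14.4 CPM). That is near the 17.9% of all genes, and subunits of the same complexes differed, Rfxap being at 0.809 and Nfyb at 0.945. Irf8, the regulator with most UMIs, stood at 300, 296 and 231 CPM in aged+AA, aged and young B cells. Prdm1, counted among the 11, is also a plasma marker. The B gate allowed at most 1 UMI of the plasma list, so the gate limited the Prdm1 level in every library.

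Of 8 genes of endosomal processing, 1 was higher for aged+AA over aged, the protease gene Ctsl at 1.69 (12.2 against 7.25 CPM), and 0 lower, against 4.23% and 6.01% of all genes. For aged over young, 1 was higher, the endosomal thiol reductase gene Ifi30 at 1.51 (357 against 236 CPM), and 0 lower, against 17.9% and 4.94% of all genes. Ctss, the protease that cuts the invariant chain, had the most UMIs at 475, 410 and 452 CPM in aged+AA, aged and young B cells, lowest in the aged library as was Cd74. Of 5 genes of surface turnover and costimulation with at least 50 UMIs, 2 were higher and 1 lower for aged+AA over aged, against 4.23% and 6.01% of all genes. Cd86, a costimulatory ligand, was 73.2 CPM in aged+AA and 36.7 CPM in aged B cells (2.00, 1.82 to 2.20), and Cd83, which keeps class II at the surface, 221 and 120 CPM (1.84, 1.75 to 1.95). Cd80 was at 0.640, from 54 and 66 UMIs. For aged over young none of the 5 was past 1.5-fold, Cd86 being at 0.683 and Cd83 at 0.845. March1, the ligase that removes class II from the surface, stood at 161, 176 and 186 CPM. H2-Eb2, a further class II beta gene of chromosome 17, stood at 56.1, 54.9 and 57.3 CPM.

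The pattern across classes was compared with that of 10687 other genes over 17 sums of a class and library with at least 20 cells. The measure was Pearson's r of log2(CPM + 10) with the summed 10 genes, a description only, since sums of a library share its free RNA and B cells form the high end in each. Within the group, Cd74 had an r of 0.993, H2-Ab1 0.977, H2-Aa 0.972 and H2-Eb1 0.944, and H2-Oa the lowest at 0.840. Each of these genes is part of the sum it was compared with, and Cd74 is the largest part, so these values are in part fixed by the measure. The 10 most alike genes outside it were Ero1lb (0.945), Txndc16 (0.939), Cd22 (0.924), Kynu (0.919), Scd1 (0.917), Bcl11a (0.915), Pkig (0.914), Snx9 (0.912), Ebf1 (0.907) and Trim7 (0.907). Ebf1, a B cell transcription factor, had 1765, 1609 and 1929 CPM in aged+AA, aged and young B cells. Cd22, a B cell surface receptor, had 162, 246 and 102 CPM there, which is the order of libraries of Ciita and not that of Cd74.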

How the data were processed

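The authors deposited raw UMI counts of all barcodes, written by Cell Ranger 4 as the file headers state. The submitters' processing notes name mm10 and Seurat 3.1.0. Other steps are not given in the sources used here. The 10 genes, the marker lists and the pathway lists were chosen with earlier results of these data known.

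Cells were called in Python 3.11.15 (numpy 2.4.6, scipy 1.17.1): barcodes passed above a knee threshold, or from 500 UMIs, by a profile unlike free RNA (adjusted p up to 0.01). Cells needed 250 genes and at most 10% mitochondrial UMIs, and doublets were removed by Scrublet in scanpy 1.11.5, which marked 4.02% to 4.51%. A gate needed at least 3 UMIs from at least 2 markers, and at most 1 UMI of each excluded list. Monocytes were called classical where UMIs of Ly6c2, Ccr2, F13a1 and Chil3 exceeded those of Treml4, Ace, Eno3 and Spn. All other monocytes were called non-classical, ties and cells without UMIs of either list included. Neutrophil and plasma exclusions, CD4 and CD8 T cells, stage thresholds dendritic cells with monocyte markers and the share of monocyte UMIs in the top 10 cells were set after the data were seen. Counts were summed per class and library. A ratio counted at 1.5-fold or more and from 50 UMIs over 2 libraries, and 0.5 was added to each count for medians. All 10 members were described; pathway genes were named at 1.5-fold or as the most abundant of their list. March1, Cd83, Cd86, Rfxap and Nfyb were in part named after their values were seen. Ratios were tested on simulated data. Alternatives covered scaling, free RNA, gates, cell filters and thinning. Figures used matplotlib 3.10.9.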

Additional observations from a re-analysis of the deposited data

Results flagged for a closer look

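H2-Ab1 was flagged because its aged over young ratio in non-classical monocytes lay on the other side of 1 from that in B cells. In non-classical monocytes it was 3.17 (1.65 to 7.0), from 326 aged and 9 young UMIs in 106 of 495 and 6 of 51 cells, and in B cells 0.852 (0.841 to 0.863). In aged non-classical monocytes, 10 cells held 53.4% of the H2-Ab1 UMIs. Opposite sides of 1 were particular neither to H2-Ab1 nor to monocytes. In T cells the aged over young ratio of H2-Ab1 was 3.42. Cd74 was at 4.22 in T and 0.836 in B cells, and H2-Aa at 3.87 and 0.841. The difference between the classes was not tested, since each group has 1 library. Free RNA in the median non-classical monocyte was 2.55% in the aged and 1.18% in the young library, and its part in the ratio was not tested.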

How the results depend on the processing

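For single genes in B cells, 180 alternative ratios were computed; in non-classical monocytes only the median over the genes was recomputed. Of these, 122 stayed within the main counting interval, 58 moved outside it, none turned round a ratio past 1.5-fold, and 168 lay on the same side of 1. The cause of the moves was not tested.

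In B cells for aged+AA over aged, the median log2 ratio moved to 0.23 when ribosomal, mitochondrial, haemoglobin and immunoglobulin genes were left out of the total and to 0.24 as a mean over cells. The count of members higher was 0 under both, 5 at the lower fold tried and 0 at 2-fold. For aged over young, the median was -0.33 when centred on all genes and -0.04 with at most 5% mitochondrial UMIs. The count lower was 0 without those gene classes, with at most 5% mitochondrial UMIs, as a mean over cells and at 2-fold, and the count higher was 0 at 2-fold. H2-DMb2 then stood at 0.668, 0.684 and 0.668, close to the limit. In non-classical monocytes, the median for aged over young moved to 0.70 with 5 marker UMIs and 0 of excluded lists.

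The share of B cells with a Ciita UMI rose with depth, to 24%, 31.1% and 16.2% at 2000 UMIs and 39.1%, 43.9% and 27.7% without thinning in the aged+AA, aged and young libraries. After free RNA was subtracted, H2-DMb1 made up 100% of the pair in aged+AA and 98.6% in aged non-classical monocytes. No paired analysis was possible because each group has 1 library and the labels give no shared replicate numbers. Cell number limits the rare classes, since young dendritic and classical monocyte gates held 0 and 4 cells.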
